A study of Mus musculus with 50 samples.

Results

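The genes of the circadian clock were examined in hippocampal microglia of mice raised under control (CTR) or early-life stress (ELS) conditions. Members were taken by gene symbol from the deposited count tables and are Clock, Per2, Per3, Cry1, Cry2, Nr1d1, Nr1d2, Dbp, Bhlhe40 and Bhlhe41, 10 of the 53700 genes in the tables. All 10 passed the filter on low counts. A further 19 genes of the clock network that are no members were followed as a list, and 16 of these passed the filter.

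All animals were male C57BL/6J mice, and no genetic modification is named for any group. ELS litters had limited bedding and nesting material from postnatal day (P) 2 to P9, and CTR litters had standard cages. Microglia, the resident macrophages of the brain, were sorted from the hippocampus as living CD45int CD11b+ cells, and polyadenylated RNA was sequenced for each mouse. One cohort was killed at P9 without treatment and held 12 CTR and 13 ELS mice (groups P9-CTR and P9-ELS). Another was killed at P200, 3 h after an intraperitoneal injection of phosphate-buffered saline (PBS) or of 1 mg/kg lipopolysaccharide (LPS), a bacterial cell wall component that triggers inflammation. PBS was given to 7 CTR and 6 ELS mice, and LPS to 7 CTR and 5 ELS mice; these groups are called by age, condition and treatment, such as P200-ELS-LPS. Each mouse label holds a number before a point, which several mice share; the labels do not say what it stands for, ELS and CTR mice of an age never share a number, and each of the 10 adult numbers holds both PBS and LPS mice. Mice lived under 12 h of light and 12 h of dark, and the hour at which they were killed was not given in the sources used here.

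The molecular clock is a feedback loop of transcription. CLOCK, paired with the product of Arntl (Bmal1), binds E-boxes and switches on the Per and Cry genes, whose proteins return to the nucleus and shut CLOCK and BMAL1 off. A second loop runs through the nuclear receptors Nr1d1 and Nr1d2 (REV-ERB alpha and beta), which repress Arntl, and output factors such as DBP carry the rhythm to other genes through D-boxes. Bhlhe40 (DEC1) and Bhlhe41 (DEC2) are repressors that compete at E-boxes, and both are also known as regulators of macrophages and other immune cells. Transcripts of most of these genes rise and fall over the day in many tissues, so that hour of collection and group cannot be told apart where the hour is unknown.

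The 4 members that changed with LPS in at least one condition were Bhlhe40, Bhlhe41, Nr1d1 and Per3, and their promoter sequences are shown first. Each stretch runs 5′ to 3′ on the strand of the gene, from 250 bases before to 10 bases after the annotated start of the canonical transcript in GRCm39 (260 bases). Capitals mark matches to 5 clock and signalling motifs searched on both strands, which were the E-box CACGTG, the E-prime-box CACGTT, the D-box TTATGTAA, the core TAGGTCA bound by REV-ERB and ROR receptors, and the cAMP response element TGACGTCA.
Bhlhe40, chr6:108636376-108636635, plus strand: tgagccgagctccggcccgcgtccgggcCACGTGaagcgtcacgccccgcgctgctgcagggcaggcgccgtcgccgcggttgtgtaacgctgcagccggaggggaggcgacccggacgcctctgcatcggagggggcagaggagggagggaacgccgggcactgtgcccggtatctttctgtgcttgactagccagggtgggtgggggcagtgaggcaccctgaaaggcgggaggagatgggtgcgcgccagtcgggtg
Bhlhe41, chr6:145811289-145811548, minus strand: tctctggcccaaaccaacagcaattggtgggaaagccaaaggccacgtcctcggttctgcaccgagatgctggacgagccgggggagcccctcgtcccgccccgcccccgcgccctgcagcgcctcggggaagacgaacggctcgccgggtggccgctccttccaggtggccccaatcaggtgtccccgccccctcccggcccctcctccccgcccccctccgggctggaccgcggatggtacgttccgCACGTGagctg
Nr1d1, chr11:98666150-98666409, minus strand: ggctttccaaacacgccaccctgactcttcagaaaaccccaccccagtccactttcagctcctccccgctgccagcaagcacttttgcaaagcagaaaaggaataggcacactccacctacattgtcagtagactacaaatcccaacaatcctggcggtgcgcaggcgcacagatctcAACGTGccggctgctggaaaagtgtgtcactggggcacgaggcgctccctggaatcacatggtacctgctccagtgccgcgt
Per3, chr4:151129131-151129390, minus strand: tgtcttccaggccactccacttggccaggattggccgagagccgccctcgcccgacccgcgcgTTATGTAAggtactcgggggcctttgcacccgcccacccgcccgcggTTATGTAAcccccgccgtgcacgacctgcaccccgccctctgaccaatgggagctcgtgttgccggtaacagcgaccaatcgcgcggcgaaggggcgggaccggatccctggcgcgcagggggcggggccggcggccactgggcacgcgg

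Per3 held 2 D-boxes, with first bases at -187 and -140 from the start. Only 0.86% of 21626 protein-coding genes had a D-box in a window of this length, and Per2 was the other member with one. Bhlhe40 had an E-box at -222 and Bhlhe41 had one that began at -1, a motif present in 6.69% of the windows. The match in Nr1d1 at -72 was an E-prime-box read on the other strand (4.32% of windows). Among the remaining members, Cry1 held an E-box and an E-prime-box, Cry2 an E-prime-box and Dbp a REV-ERB and ROR core (2.21% of windows). Clock and Nr1d2 held none of the 5 motifs, and no member held the cAMP response element, which was present in 1.97% of windows. The matches are descriptions of sequence, and binding was not measured.

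Total counts ranged from 5152838 to 42231258 per mouse, with a median of 19960409. Mice P9_19.3_ELS and P9_19.2_ELS and mouse P200_1.1_CTR_PBS had the fewest detected genes (12482, 15731 and 12854, against at least 16485 in every other mouse), and results that rest on them are given without them. The 7 microglial markers were high in every group, with summed levels of 34550 to 80290 counts per 1000000 counts of the library (CPM). At P9 the libraries also held transcripts of border-associated macrophages (5 genes, summed level 470 to 916 CPM, against 1.80 to 9.62 CPM at P200), neurons (6 genes, 39.2 to 187 against 2.49 to 15.15 CPM) and astrocytes (5 genes, 43.2 to 182 against 0.0509 to 9.90 CPM). Nearly all of the border-associated macrophage sum at P9 was Mrc1, with a median of 700 CPM in P9-CTR mice. There the medians of Cd163, Lyve1, Pf4 and Cbr2 were 0.887 to 5.06 CPM, against 0 to 0.1025 CPM in P200-CTR-PBS mice. The 6 genes of monocytes and neutrophils summed to at most 11.0 CPM in any mouse. Ly6c2, a marker of inflammatory monocytes, was at 0 in every CTR mouse and reached at most 0.465 CPM in an ELS mouse. Other genes of this list were higher. Ccr2 was above 0 in every adult mouse, with group medians of 2.73 to 5.68 CPM and at most 10.7 CPM, and Plac8 reached 10.04 CPM at P9. Summed levels of the oligodendrocyte lineage (6 genes, 3.05 to 71.6 CPM) and of endothelium (4 genes, 1.77 to 68.5 CPM) were above 0 in all groups. Most of the former was Mbp and Mag, and most of the latter was Pecam1, with group medians of 26.7 to 55.4 CPM. Cldn5, also an endothelial gene of the list, was at 0 in every adult ELS mouse. In bulk RNA, fewer cells of a type and less RNA per cell cannot be told apart.

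Levels between genes were compared per kilobase of exon. In P200-CTR-PBS mice Bhlhe41 was the most abundant member at 35.5 ± 6.97 CPM per kb (SD, n = 7), and its lowest mouse, at 24.0 CPM per kb, lay above the highest mouse of Nr1d2, the next in order, at 6.16 CPM per kb. Nr1d2 averaged 3.44 CPM per kb, Nr1d1 2.52, Clock 1.81, Per3 1.44, Cry2 1.34, Dbp 0.923, Cry1 0.754, Per2 0.244 and Bhlhe40 0.211 CPM per kb. Below Bhlhe41 every pair of neighbours in this order overlapped between mice. The DEC repressors stood at opposite ends of the order in PBS-treated adult CTR mice. The order at P9 in CTR mice also began with Bhlhe41 at 10.8 ± 1.91 CPM per kb (SD, n = 12), Nr1d2 at 2.26 and Nr1d1 at 1.62, and ended with Bhlhe40 at 0.188 and Per2 at 0.141 CPM per kb.

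**Figure D1:**
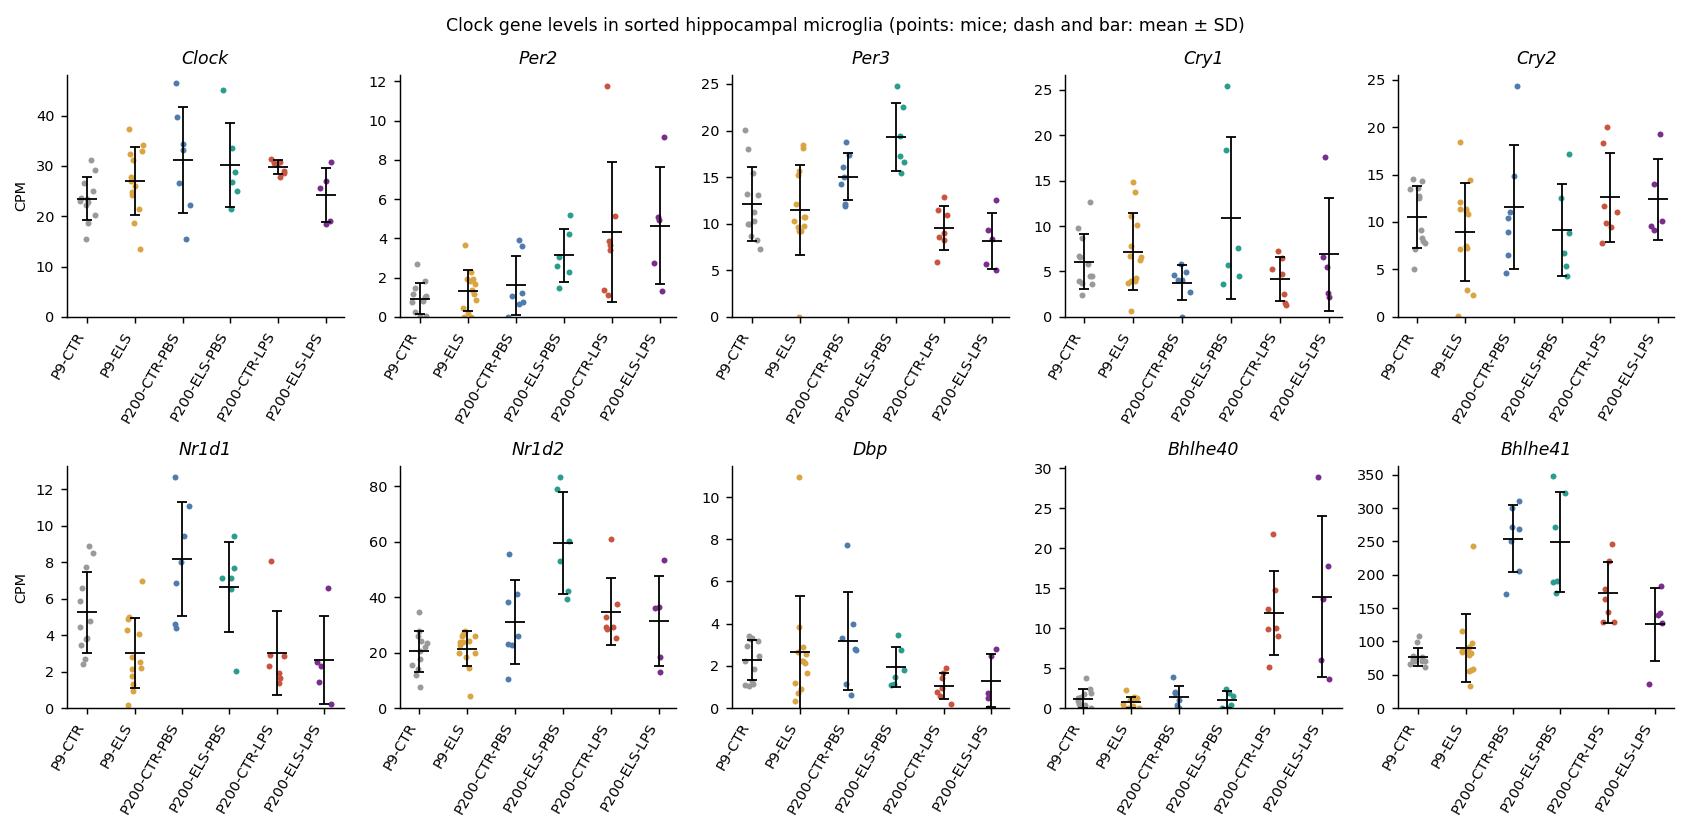
Level of the 10 clock genes in each of the 50 mice (vertical axis, CPM, starting at 0) in the 6 groups (horizontal axis); points are mice, and the dash and bar are the mean and SD, drawn only above 0. Bhlhe40 lies at or below 3.85 CPM in all P9 and PBS mice and between 3.59 and 28.8 CPM after LPS, and Bhlhe41 lies at 172 CPM or above in every adult PBS mouse.

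The first question was whether the injection of LPS changed clock genes in adult microglia. In CTR mice 2 members passed the test (edgeR quasi-likelihood, Benjamini-Hochberg adjusted p under 0.05), with Bhlhe40 higher and Nr1d1 lower. Of all genes tested, 8.73% were higher and 6.2% lower in this comparison. In ELS mice 3 members passed, with Bhlhe40 higher and Per3 and Bhlhe41 lower, beside 7.4% of all genes higher and 4.94% lower. The median log2 fold change over the members was 0.03 in CTR and -0.62 in ELS, against 0.00 and -0.04 over all genes tested.

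Bhlhe40 (chromosome 6, 108636626 to 108644502, plus strand), a DEC repressor inducible in immune cells, was near the limit of detection in PBS mice. Its levels in P200-CTR-PBS mice were 0, 0.0389, 0.444, 1.06, 1.91, 2.06 and 3.85 CPM, and in P200-CTR-LPS mice 5.15, 9.03, 9.85, 10.0, 12.4, 14.8 and 21.7 CPM. Every LPS mouse was therefore above every PBS mouse. The fold change was 8.95 (95% interval 2.33 to 34.4, log2 fold change 3.16, SE 0.99, adjusted p = 0.0219).

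In ELS mice, Bhlhe40 was 0, 0, 0.427, 1.58, 1.86 and 2.45 CPM after PBS and 3.59, 6.03, 13.6, 17.7 and 28.8 CPM after LPS. These groups did not overlap either, and the means rose from 1.05 ± 1.05 CPM (SD, n = 6) to 13.9 ± 10.1 CPM (SD, n = 5). The fold change was 13.1 (95% interval 2.89 to 59.4, log2 fold change 3.71, SE 1.11, adjusted p = 0.0188). Bhlhe40 was higher after LPS within all 5 label numbers of either condition. It passed under all 9 alternatives in both conditions, and a single mouse decided it once: without mouse P200_20.1_ELS_LPS the log2 fold change in ELS was 3.27 with an adjusted p of 0.0596. Counts by label number and statements on overlap, here and below, describe the same mice as the test and add no separate support. The share of all genes tested that did likewise is not given.

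Bhlhe40 shares 442 exon bases (6.96% of its exon length) with the non-coding gene 0610040F04Rik on the opposite strand. The counts may have been made without strand, and reads of both genes cannot then be told apart. The level of 0610040F04Rik also differed, from 0.0988 to 0.964 CPM in CTR (log2 fold change 3.26, adjusted p = 0.0324, or 0.068 without a filter on low counts) and from 0.0946 to 1.03 CPM in ELS (log2 fold change 3.35, past the threshold under 6 of 9 alternatives but not in the edgeR test used here).

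Bhlhe41 (chromosome 6, 145803969 to 145811430, minus strand), the paralog, was lower after LPS. In P200-ELS-PBS mice its levels were 173, 189, 191, 271, 323 and 348 CPM, and in P200-ELS-LPS mice 35.6, 128, 139, 143 and 183 CPM. Of the 5 LPS mice, 4 were below every PBS mouse. The log2 fold change was -0.98 (SE 0.30, adjusted p = 0.0213), which does not exceed 1. The lowest LPS value was that of mouse P200_11.2_ELS_LPS, and without this mouse the log2 fold change was -0.75 (adjusted p = 0.0864). The call was also lost without mouse P200_17.1_ELS_PBS (-0.90, adjusted p = 0.0507) or mouse P200_17.2_ELS_PBS (-0.85, adjusted p = 0.0681), and in the fit of the compared groups alone (-0.98, adjusted p = 0.0505).

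In CTR mice Bhlhe41 was 254 ± 49.9 CPM (SD, n = 7) after PBS and 173 ± 45.6 CPM (SD, n = 7) after LPS, a log2 fold change of -0.56 (SE 0.26) that did not pass (adjusted p = 0.155) but did in the fit of the compared groups alone (adjusted p = 0.0289). It was lower after LPS within all 5 label numbers of either condition. A test of whether the response differed between ELS and CTR gave a log2 difference of -0.43 (SE 0.39, adjusted p = 0.965). Bhlhe41 shares 1583 exon bases (22.1%) with the predicted gene Gm43909 on the opposite strand, which stood at 1.02 to 3.73 CPM in the adult CTR groups.

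Nr1d1 (chromosome 11, 98658752 to 98666188, minus strand), the REV-ERB alpha repressor of Arntl, fell in CTR mice. Its levels were 4.42, 4.61, 6.88, 8.01, 9.46, 11.08 and 12.7 CPM after PBS and 1.38, 1.68, 1.93, 2.31, 2.88, 2.92 and 8.08 CPM after LPS. Of the 7 LPS mice, 6 were below every PBS mouse, and mouse P200_5.3_CTR_LPS lay inside the PBS range. The log2 fold change was -1.44 (SE 0.49, adjusted p = 0.0371), a fold of 0.37 (95% interval 0.191 to 0.717).

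The call for Nr1d1 in CTR mice lay close to the threshold. It was lost without a filter on low counts (adjusted p = 0.0621) and in 9 of the 14 fits that left out a single mouse (mice P200_1.1_CTR_PBS, P200_5.1_CTR_PBS and P200_5.2_CTR_PBS and mice P200_1.2_CTR_LPS, P200_1.3_CTR_LPS, P200_8.2_CTR_LPS, P200_8.3_CTR_LPS, P200_15.2_CTR_LPS and P200_18.3_CTR_LPS), with log2 fold changes from -1.43 to -1.30 and adjusted p from 0.057 to 0.0785. In ELS mice the log2 fold change of Nr1d1 was of like size at -1.34 (SE 0.56) and did not pass (adjusted p = 0.114). Without mouse P200_11.2_ELS_LPS, at 6.62 CPM, it was -2.02 (adjusted p = 0.0192), and it also passed without the 3 libraries with few detected genes (-1.33, adjusted p = 0.0436) and in limma voom with the label number as a random effect (-1.80, adjusted p = 0.0388). Within label numbers Nr1d1 was lower after LPS in 5 of 5 numbers in CTR and 5 of 5 in ELS, and the test of a difference in response between conditions gave 0.10 on the log2 scale (SE 0.73), which did not pass.

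Of the exon length of Nr1d1, 52.3% (1694 bases) overlaps Thra, the thyroid hormone receptor alpha gene, on the opposite strand. Thra stood at 3.53 ± 1.49 CPM after PBS and 2.01 ± 1.37 CPM after LPS in CTR mice (SD, n = 7 each), and its log2 fold change of -0.82 did not pass. How far reads of Thra entered the counts of Nr1d1 was not tested.

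Per3 (chromosome 4, 151081373 to 151129140, minus strand), a period gene, fell in ELS mice. Its levels were 15.4, 16.6, 17.25, 19.4, 22.5 and 24.8 CPM after PBS and 5.02, 5.71, 8.35, 9.36 and 12.5 CPM after LPS. Every LPS mouse was below every PBS mouse. The log2 fold change was -1.24 (SE 0.39, adjusted p = 0.0251), a fold of 0.424 (95% interval 0.251 to 0.717). Leaving out mouse P200_2.2_ELS_LPS or P200_20.1_ELS_LPS or mouse P200_17.2_ELS_PBS ended the call, with log2 fold changes of -1.15 to -1.11 and adjusted p of 0.056 to 0.0807, as did testing without a filter on low counts (adjusted p = 0.0501).

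In CTR mice Per3 was 15.0 ± 2.56 CPM after PBS and 9.57 ± 2.35 CPM after LPS (SD, n = 7 each), and 6 of the 7 LPS mice were below every PBS mouse. The log2 fold change of -0.65 (SE 0.33) did not pass (adjusted p = 0.204) but did in the fit of the compared groups alone (-0.66, adjusted p = 0.0422). Per3 was lower after LPS within 5 of 5 label numbers in CTR and 5 of 5 in ELS. The difference in response between conditions was -0.58 on the log2 scale (SE 0.50, adjusted p = 0.964).

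**Figure D2:**
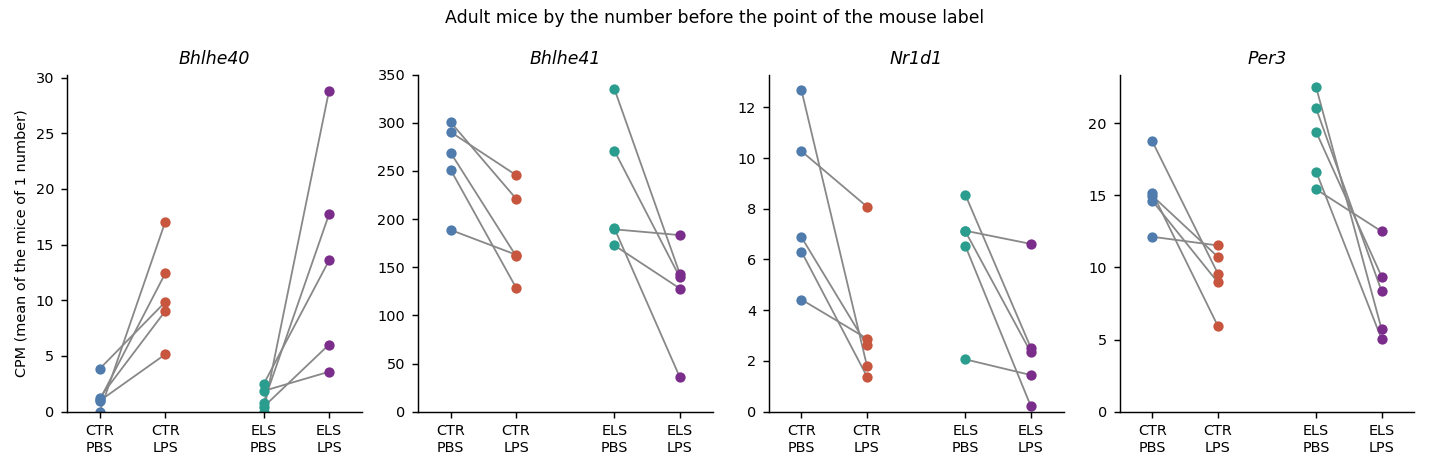
Level of Bhlhe40, Bhlhe41, Nr1d1 and Per3 (vertical axis, CPM, starting at 0) in adult mice after PBS and LPS, for CTR and ELS mice (horizontal axis). Each point is the mean of the mice that share a label number in that group, and each line joins the PBS and LPS points of that number; every line rises for Bhlhe40 and falls for the other 3 genes, in all 5 numbers of either condition.

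The other members did not pass after LPS in either condition. Dbp, the D-box activator of clock output, was 3.20 ± 2.32 CPM after PBS and 1.06 ± 0.617 CPM after LPS in CTR mice (SD, n = 7 each), with 2 of the LPS mice below every PBS mouse. Its log2 fold change of -1.59 (SE 0.60) had an adjusted p of 0.0628. This became 0.039 without mouse P200_8.1_CTR_PBS, 0.0477 without mouse P200_18.1_CTR_PBS and 0.031 in DESeq2 and in the likelihood-ratio test. Dbp passed in only 2 of 9 alternatives and 2 of 14 fits that left out a single mouse. In the others the log2 fold change was as small as -1.20. The adjusted p reached 0.202 over the alternatives and 0.195 over the fits without a mouse. The highest Dbp after PBS, 7.74 CPM, was that of mouse P200_1.1_CTR_PBS, a library with few detected genes. In ELS mice the log2 fold change of Dbp was -0.58 (SE 0.67, adjusted p = 0.65). Dbp shares 15.5% of its exon length with Sphk2 on the opposite strand, and Clock 11.9% with Tmem165.

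Nr1d2 (chromosome 14, 4230545 to 4266624, plus strand), the REV-ERB beta gene, was 31.1 ± 15.0 CPM after PBS and 34.8 ± 12.2 CPM after LPS in CTR mice (SD, n = 7 each; log2 fold change 0.16, SE 0.31, adjusted p = 0.81). In ELS mice the PBS values were 39.4, 42.4, 53.15, 60.2, 79.0 and 83.5 CPM and the LPS values 12.9, 18.4, 36.2, 36.7 and 53.5 CPM, so that 4 of 5 LPS mice were below every PBS mouse. The log2 fold change in ELS was -0.92 (SE 0.35) and did not pass (adjusted p = 0.0812), or -1.19 with an adjusted p of 0.0333 without mouse P200_20.1_ELS_LPS. It also passed without the 3 libraries with few detected genes (-0.92, adjusted p = 0.0183) and in limma voom with the label number as a random effect (-1.03, adjusted p = 0.0258). Within label numbers Nr1d2 was lower after LPS in 5 of 5 ELS numbers and in 2 of 5 CTR numbers, and the test of the difference between conditions gave -1.08 (SE 0.47, adjusted p = 0.735).

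Per2, which behaves as an immediate early gene in some cells, was 1.60 ± 1.52 CPM after PBS and 4.32 ± 3.58 CPM after LPS in CTR mice (SD, n = 7 each; log2 fold change 1.43, SE 0.76, adjusted p = 0.223). It was higher after LPS in 5 of 5 CTR numbers and 3 of 5 ELS numbers. Clock had the smallest SD of log2 CPM of the members after LPS in CTR mice (0.065), with 7 values between 27.8 and 31.3 CPM, against 15.5 to 46.5 CPM after PBS. Its log2 fold change was -0.07 (SE 0.19) in CTR and -0.32 (SE 0.22) in ELS. The cryptochromes gave log2 fold changes of 0.15 (Cry1, SE 0.55) and 0.13 (Cry2, SE 0.44) in CTR and of -0.66 (Cry1, SE 0.62) and 0.44 (Cry2, SE 0.49) in ELS.

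None of the 10 members differed in its response to LPS between ELS and CTR mice at the threshold (edgeR, 0 members, 1 at an unadjusted p under 0.05, 0 by DESeq2 and 0 by limma voom). Over all genes 0% passed that test, and 980 were under an unadjusted p of 0.05.

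The clock genes outside the member list gave a background to these changes. Of the 16 tested, 4 were higher and 1 lower after LPS in CTR mice (Per1, Nfil3, Noct and Usp2 higher, Tef lower), and 3 were higher and 2 lower in ELS mice (Per1, Nfil3 and Usp2 higher, Tef and Rorb lower). Over all genes tested, 8.73% were higher and 6.2% lower in CTR mice, and 7.4% higher and 4.94% lower in ELS mice. Per1, the third period gene, went from 0, 3.18, 5.31, 7.43, 7.70, 7.94 and 9.57 CPM after PBS to 27.8, 33.5, 37.2, 56.6, 59.5, 79.3 and 81.2 CPM after LPS in CTR mice. No LPS mouse overlapped a PBS mouse, and the fold change was 9.14 (95% interval 4.14 to 20.198, adjusted p = 4.25e-05). In ELS mice Per1 went from 14.6 ± 12.9 to 56.3 ± 15.7 CPM (log2 fold change 1.95, SE 0.61, adjusted p = 0.0271). These groups barely separated, with the highest PBS mouse at 38.5 CPM and the lowest LPS mouse at 38.85 CPM. The call in ELS was lost in the fits without mouse P200_2.1_ELS_PBS, P200_17.1_ELS_PBS, P200_17.2_ELS_PBS or P200_20.2_ELS_PBS or mouse P200_2.2_ELS_LPS or P200_11.2_ELS_LPS, with adjusted p of at most 0.066.

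Nfil3, the repressor that competes with DBP at D-boxes, rose from 1.02 ± 0.944 to 8.08 ± 3.84 CPM in CTR (SD, n = 7 each; log2 fold change 2.96, adjusted p = 0.00215) and from 0.907 ± 0.662 to 13.5 ± 9.33 CPM in ELS (SD, n = 6 and n = 5; log2 fold change 3.89, adjusted p = 0.000471). Its groups did not overlap in either condition. Tef, a D-box activator related to DBP, fell from 28.2 ± 7.38 to 15.7 ± 4.12 CPM in CTR (log2 fold change -0.85, adjusted p = 0.0242) and from 26.3 ± 7.67 to 13.0 ± 2.43 CPM in ELS (log2 fold change -1.01, adjusted p = 0.0214). These calls were lost without a filter on low counts (adjusted p = 0.0527 in CTR and 0.0592 in ELS). They were also lost without mouse P200_1.1_CTR_PBS or mouse P200_1.2_CTR_LPS or P200_1.3_CTR_LPS in CTR, and without mouse P200_11.1_ELS_PBS or mouse P200_2.2_ELS_LPS or P200_20.1_ELS_LPS in ELS, with adjusted p of at most 0.0656. Usp2, a deubiquitinase whose transcript is under clock control in liver, went from 327 ± 19.0 to 603 ± 71.7 CPM in CTR and from 330 ± 41.6 to 626 ± 141 CPM in ELS. Rorb was at 0 in all 5 P200-ELS-LPS mice and at 0.246 CPM on average in P200-ELS-PBS mice, and no fold is given for it. Leaving out any 1 of the 5 LPS mice, or mouse P200_17.2_ELS_PBS, ended its call. So did testing without a filter on low counts (adjusted p = 0.0703), the fit of the compared groups alone (0.165) and limma voom with the label number as a random effect (0.838). Noct, a gene with a rhythmic transcript, rose from 0.414 ± 0.53 to 4.25 ± 1.62 CPM in CTR (SD, n = 7 each, log2 fold change 3.31, adjusted p = 0.00292). In ELS it went from 1.67 ± 2.41 to 4.17 ± 2.77 CPM and did not pass (log2 fold change 1.32, adjusted p = 0.356). The highest of these PBS values was 6.52 CPM, in mouse P200_20.2_ELS_PBS.

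Arntl, the partner of Clock, stood at 22.3 ± 11.0 CPM after PBS and 12.4 ± 3.57 CPM after LPS in CTR mice and did not pass in the main fit. It passed in the fit of the compared groups alone (log2 fold change -0.86, adjusted p = 0.0447). It also passed in edgeR with the label number as a block (-1.04, adjusted p = 0.00112). Arntl passed in only these 2 of 9 alternatives and in 0 of 14 edgeR fits that left out a single mouse. Over the alternatives its log2 fold change was as small as -0.56. The adjusted p reached 0.422 over the fits without a mouse. Mouse P200_1.1_CTR_PBS held the highest Arntl level, at 46.6 CPM against at most 19.9 CPM in the other 6. That mouse also had the highest Nr1d1 (12.7 CPM), Dbp (7.74 CPM) and Cry2 (24.3 CPM) of its group and 0 CPM of Per2, Cry1, Bhlhe40, Per1, Nfil3 and Noct, and it is one of the 3 libraries with few detected genes.

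**Figure D3:**
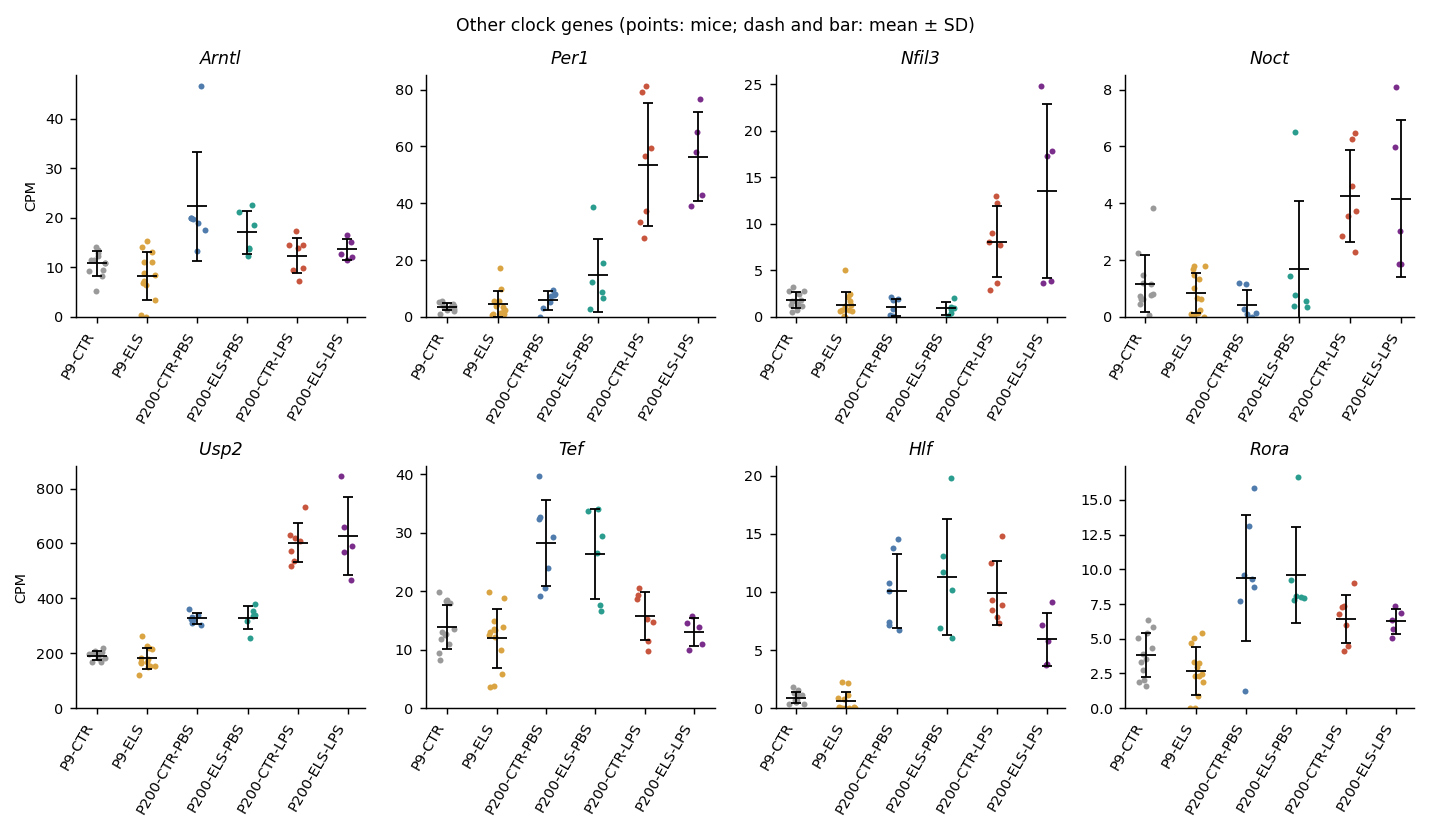
Level of 8 clock genes outside the member list (vertical axis, CPM, starting at 0) in the 6 groups (horizontal axis); points are mice, and the dash and bar are the mean and SD, drawn only above 0. Per1 and Nfil3 lie higher in LPS mice than in any PBS mouse of the same condition, Usp2 does likewise, and Hlf is above 6 CPM in every adult PBS mouse and below 2.25 CPM in every P9 mouse.

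The second question was how the clock genes differed between neonatal and adult microglia. In CTR mice 2 members were higher at P200 than at P9 (Bhlhe41 and Clock) and none was lower, beside 17.4% of all genes higher and 26.6% lower. In ELS mice 4 members were higher (Bhlhe41, Nr1d2, Nr1d1 and Per3) and none was lower, beside 17.15% of all genes higher and 25% lower. The median log2 fold change over the members was 0.45 in CTR and 0.67 in ELS, against -0.09 and -0.01 over all genes. The adults differed from the P9 mice also in the PBS injection and in a Percoll step that removed myelin, so that age and handling cannot be told apart, and the higher P9 levels of border macrophage, neuron and astrocyte genes given above moved with age, their part in the result not being tested.

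Bhlhe41 rose from a median of 72.8 CPM (61.7 to 109 CPM) in P9-CTR mice to a median of 269 CPM (172 to 310 CPM) in P200-CTR-PBS mice. The lowest adult was thus above the highest neonate, and the fold change was 3.30 (95% interval 2.42 to 4.48, log2 fold change 1.72, SE 0.23, adjusted p = 1.41e-08). In ELS mice it rose from a median of 83.9 CPM (33.3 to 243 CPM) to 231 CPM (173 to 348 CPM), with a fold change of 2.76 (95% interval 2.02 to 3.77, adjusted p = 8.18e-07). Both extremes of the P9-ELS range belonged to the libraries with few detected genes, mice P9_19.3_ELS and P9_19.2_ELS. Bhlhe41 passed in both conditions under all 8 alternatives and in all 19 fits that left out a single mouse. Its antisense neighbour Gm43909 also rose in CTR mice, from 0.927 to 2.54 CPM on average (edgeR log2 fold change 1.45, adjusted p = 0.000782). In ELS mice Gm43909 went from 0.767 to 1.41 CPM (0.85, adjusted p = 0.0565) and passed in 5 of 8 alternatives. How far reads of Gm43909 entered the counts of Bhlhe41 was not tested.

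Nr1d2 in ELS mice rose from a median of 24.0 CPM (4.51 to 28.0 CPM) at P9 to 56.7 CPM (39.4 to 83.5 CPM) at P200, and the groups did not overlap. The fold change was 2.77 (95% interval 1.92 to 4.01, log2 fold change 1.47, SE 0.27, adjusted p = 1.62e-05). In CTR mice the medians were 21.4 and 25.9 CPM, and the log2 fold change of 0.60 (SE 0.27) did not pass (adjusted p = 0.0647). It passed in CTR with the filterByExpr filter (log2 fold change 0.69, adjusted p = 0.035), without the 3 mice with few detected genes (0.755, adjusted p = 0.00587), and also without mouse P200_1.1_CTR_PBS alone (0.755, adjusted p = 0.0186) or mouse P9_17.2_CTR, P9_17.3_CTR or P9_51.3_CTR (0.66 to 0.71, adjusted p from 0.0293 to 0.0481). The test of whether the change with age differed between ELS and CTR gave 0.87 on the log2 scale (SE 0.39, adjusted p = 0.445).

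Nr1d1 in ELS mice rose from a median of 2.51 CPM (0.152 to 6.99 CPM) to 7.13 CPM (2.06 to 9.44 CPM), with overlap (log2 fold change 1.16, SE 0.43, adjusted p = 0.0241). Without mouse P200_17.2_ELS_PBS the log2 fold change was 1.06 (adjusted p = 0.0567), and in the fit of the compared groups alone 1.12 (adjusted p = 0.0633). In CTR mice the log2 fold change of Nr1d1 was 0.63 (SE 0.42, adjusted p = 0.222). Its antisense neighbour Thra went the opposite way with age, from 13.6 ± 7.20 CPM at P9 to 3.53 ± 1.49 CPM at P200 in CTR mice (log2 fold change -1.95, adjusted p = 0.000135), and from 7.63 ± 4.18 to 2.25 ± 1.73 CPM in ELS mice.

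Per3 rose in ELS mice from a median of 10.7 CPM (0 to 18.5 CPM) to 18.32 CPM (15.4 to 24.8 CPM), with 3 of 6 adults above every P9 mouse (log2 fold change 0.75, SE 0.30, adjusted p = 0.0386). The 0 was that of mouse P9_19.3_ELS, and without all 3 libraries with few detected genes the call held. It was lost without mouse P200_4.1_ELS_PBS, P200_17.2_ELS_PBS or P200_20.2_ELS_PBS (log2 fold changes 0.68 to 0.74, adjusted p from 0.0586 to 0.0831), without a filter on low counts (adjusted p = 0.0517) and in the fit of the compared groups alone (adjusted p = 0.167). Clock rose in CTR mice from 23.5 ± 4.32 CPM (SD, n = 12) to 31.2 ± 10.6 CPM (SD, n = 7), a log2 fold change of 0.41 (SE 0.17, adjusted p = 0.0457). That call was lost in 8 of 19 fits that left out a single mouse (mice P9_15.2_CTR, P9_51.1_CTR, P9_51.3_CTR and P9_52.1_CTR and mice P200_5.1_CTR_PBS, P200_8.1_CTR_PBS, P200_18.1_CTR_PBS and P200_18.2_CTR_PBS), with adjusted p from 0.0504 to 0.192. It was also lost without a filter on low counts (0.0732), in the fit of the compared groups alone (0.0548) and in limma voom with the label number as a random effect (0.101).

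For Per2, Cry1, Cry2, Dbp and Bhlhe40 the change with age did not pass in edgeR in either condition. An exception was Per2 in ELS mice, which passed in limma voom with the label number as a random effect (log2 fold change 1.81, adjusted p = 0.0476, against 1.21 and 0.14 in edgeR). The log2 fold changes of these 5 members ran from -0.69 (Cry1, SE 0.50) to 0.78 (Per2, SE 0.66) in CTR and from -0.40 (Dbp, SE 0.54) to 1.21 (Per2, SE 0.66) in ELS. None of the 10 members passed the test of a difference in age effect between conditions (0 members, 1 at an unadjusted p under 0.05, 0 by DESeq2 and 0 by limma voom), beside 0.0299% of all genes. Of the 16696 genes tested, 1712 were under an unadjusted p of 0.05 in that test.

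Among the 16 other clock genes tested, 6 were higher and 1 lower with age in CTR mice and 8 higher and 1 lower in ELS mice. Of all genes tested, 17.4% were higher and 26.6% lower in CTR mice, and 17.15% higher and 25% lower in ELS mice. Hlf, a D-box activator of the family of DBP and TEF, rose from 0.918 ± 0.492 to 10.1 ± 3.18 CPM in CTR (log2 fold change 3.45, SE 0.56, adjusted p = 1.46e-06) and from 0.576 ± 0.824 to 11.3 ± 5.00 CPM in ELS (log2 fold change 4.36, SE 0.58, adjusted p = 1.81e-08), with no overlap between ages. Tef was higher by 1.02 and 1.14 on the log2 scale, Arntl by 1.04 and 1.05, and Rora, the activator that competes with the REV-ERB receptors, by 1.29 and 1.83, in CTR and ELS respectively. The call for Arntl was lost in CTR without mouse P200_1.1_CTR_PBS (adjusted p = 0.0781) and in ELS in the fit of the compared groups alone (adjusted p = 0.123). Rorb, a relative of Rora, was lower in both, from 1.96 to 0.0614 CPM in CTR and from 1.57 to 0.246 CPM in ELS. In ELS its call was lost in the fits without mouse P9_19.1_ELS or mouse P200_2.1_ELS_PBS, P200_4.1_ELS_PBS, P200_11.1_ELS_PBS, P200_17.1_ELS_PBS or P200_20.2_ELS_PBS, and in the fit of the compared groups alone (adjusted p = 0.0647). The comparisons of age share the PBS mice with those of LPS, so each is given by its own values.

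The third question was whether ELS itself changed clock genes. No member passed at P9, in adult PBS mice or in adult LPS mice (edgeR, DESeq2 and limma voom, 0 members in each; at an unadjusted p under 0.05, edgeR gave 1, 2 and 0 members). At P9 0% of all genes were higher and 0% lower, with 914 genes under an unadjusted p of 0.05. In adult PBS mice 0.126% were higher and 0.0419% lower, with 1622 of the 16696 genes under an unadjusted p of 0.05. In adult LPS mice the shares were 0% and 0%, with 798 genes under an unadjusted p of 0.05. ELS and CTR mice of an age come from different label numbers, and the limma voom fit, which holds the number as a random effect, is the one that allows for this.

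At P9 the member with the lowest p was Nr1d1. Its levels ran from 2.41 to 8.90 CPM with a median of 4.61 CPM in P9-CTR mice, and from 0.152 to 6.99 CPM with a median of 2.51 CPM in P9-ELS mice, where 6 of 13 mice were below every CTR mouse. The fold was 0.566 (95% interval 0.347 to 0.924, log2 fold change -0.82, SE 0.36, adjusted p = 0.908). Thra, which overlaps it, gave a log2 fold change of -0.84, from 13.6 ± 7.20 to 7.63 ± 4.18 CPM. The intervals of the other members were narrowest for Clock (fold 1.15, 95% interval 0.945 to 1.40) and Bhlhe41 (fold 1.17, 0.897 to 1.53) and widest for Bhlhe40 (fold 0.58, 0.219 to 1.54).

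In adult PBS mice the 2 members with the lowest p were Nr1d2 and Cry1, both higher in ELS mice. Nr1d2 was 10.4, 22.7, 23.3, 25.9, 38.5, 41.1 and 55.7 CPM in P200-CTR-PBS mice against 39.4 to 83.5 CPM in P200-ELS-PBS mice, of which 3 of 6 lay above every CTR mouse. The fold was 1.92 (95% interval 1.24 to 2.96, adjusted p = 0.217). Cry1, a core repressor of CLOCK and BMAL1, was 0, 2.70, 4.01, 4.06, 4.65, 4.99 and 5.87 CPM in CTR and 3.62, 4.55, 5.71, 7.58, 18.39 and 25.4 CPM in ELS mice. Mice P200_2.1_ELS_PBS and P200_20.2_ELS_PBS held the high Cry1 values, and the fold was 2.89 (95% interval 1.33 to 6.26, adjusted p = 0.273). Cry1 was again high in the LPS mouse that shares the number 20 (17.6 CPM) and not in the one that shares the number 2 (2.66 CPM).

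After LPS the levels of the members in ELS and CTR mice differed by folds between 0.728 (Bhlhe41, 95% interval 0.492 to 1.08) and 1.65 (Cry1, 95% interval 0.74 to 3.70). The value for Cry1 rested on mouse P200_20.1_ELS_LPS, without which the log2 fold change was 0.03. For Bhlhe40 the fold was 1.18 with an interval from 0.309 to 4.47, so that a difference of several-fold either way was not detectable with these mice. Of the other clock genes, none of 16 passed in any of the 3 comparisons of ELS with CTR.

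**Figure D4:**
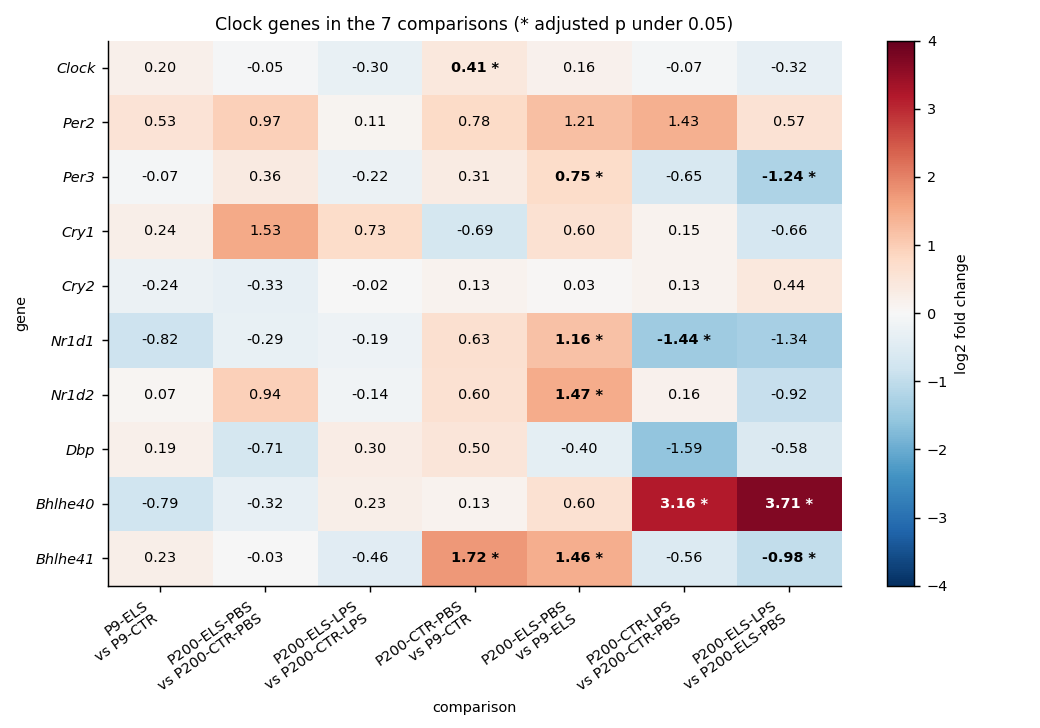
Log2 fold change of the 10 clock genes (rows) in the 7 comparisons (columns), as colour from -4 to 4 and as a printed value, with an asterisk and bold type where the edgeR adjusted p is under 0.05. The 3 columns of ELS against CTR hold no asterisk, the 2 columns of age hold 2 and 4, all for higher levels in adults, and the 2 columns of LPS hold 2 and 3.

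Because rhythmic transcripts keep phase relations to one another, 12 pairs of members were examined for levels that moved together between mice of a group, at each age (24 relations, deviations of log2 CPM from the group mean, two-sided permutation tests with 100000 permutations). Of these, 2 passed a Benjamini-Hochberg adjustment. At P9 Nr1d1 and Dbp gave r = 0.643 (permutation p = 0.0033, adjusted 0.0396; rho = 0.405, permutation p = 0.0504, adjusted 0.318; n = 25), and r fell to 0.31 once the 2 most extreme mice for Nr1d1 were left out, so that it rested on those mice. At P200 Bhlhe40 and Per2 gave r = 0.571 (permutation p = 0.00324, adjusted 0.0396; rho = 0.544, permutation p = 0.00796, adjusted 0.191; n = 25), and 0.461 once the 2 most extreme mice for Bhlhe40 were left out. Within label numbers this r was 0.79, and between the means of the 10 numbers it was -0.0472. Without the 3 mice with few detected genes neither passed (r = 0.314 and r = 0.428).

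Other pairs that share a phase or a regulator in rhythmic tissue gave no relation past the threshold in adults. Nr1d1 and Nr1d2 gave r = -0.351 (permutation p = 0.151, adjusted 0.256; rho = -0.351, permutation p = 0.119, adjusted 0.387; n = 25). Dbp and Per3 gave r = 0.414 (permutation p = 0.116, adjusted 0.232; rho = 0.352, permutation p = 0.129, adjusted 0.387; n = 25). Nr1d1 and Dbp gave r = 0.493 (permutation p = 0.076, adjusted 0.22; rho = 0.297, permutation p = 0.194, adjusted 0.519; n = 25).

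The spread within groups was also set against the label numbers, as a description. At P9, differences between numbers took 53.21% of the within-group sum of squares of Nr1d2 (log2 CPM), above the value of 86.1% of all genes tested, whose median was 32.7%. They took 39.3% for Cry1, 36.4% for Per2 and 35.5% for Clock. Below that median lay Per3 (28.0%), Dbp (26.85%), Cry2 (19.8%), Bhlhe40 (19.0%), Nr1d1 (17.7%) and Bhlhe41 (10.2%). At P200 most numbers held a single mouse of a group, and the median over all genes was 88.1%.

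The genes whose deviations from the group means were most like those of a member over the 50 mice were, for Bhlhe41, Ado (r = 0.894), Ptp4a2 (r = 0.88) and Qk (r = 0.88), out of 8268 genes considered. These were 0.876, 0.814 and 0.844 without the 3 mice with few detected genes. For Cry1 the nearest gene was Slc15a4 (r = 0.835, or 0.73 without the 3 mice) and for Nr1d2 it was Gm15283 (r = 0.773, or 0.601). For Per3 the nearest gene was Trmt5 at r = 0.931, which was 0.57 without the 3 mice. The points share libraries and depth, and the values are given as descriptions.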

How the data were processed

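Per the labels, microglia were sorted from the hippocampus of 50 mice and 1 RNA library was sequenced per mouse. The authors trimmed reads with cutadapt 2.10, aligned them to GRCm39 with STAR and deposited raw counts per gene made with HTSeq 0.11.0; the strand setting and the annotation release were not given in the sources used here. The members and the lists of other genes were chosen with earlier results of these data known. All 10 members are named, and other clock genes only where they passed a comparison.

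From the counts, the 16696 genes that reached 1 CPM in more than 2 libraries were fitted with 6 group means in edgeR 4.0.16 (R 4.3.3; TMM scaling, quasi-likelihood test, Benjamini-Hochberg adjustment over all genes). Passing means an adjusted p under 0.05. The SE of an edgeR value is the absolute log2 fold change over the square root of the quasi-likelihood F statistic. Fold intervals are the log2 fold change with the normal 95% interval from that SE, so they need not match the F test exactly. CPM values are TMM-scaled, and correlations used log2 CPM with a prior count of 2 (scipy 1.17.1). Alternatives were the likelihood-ratio test, DESeq2 1.42.0, its size factors in edgeR, no filter, filterByExpr, the compared groups alone, limma voom (limma 3.58.1) with the label number as random effect, the fit without the 3 libraries with the fewest detected genes, each mouse left out, a log2 fold change above 1, and the number as a block. Mice are taken as separate samples, and the label number that mice share enters only the random-effect and block alternatives. Where mice of a number are related, p-values of the other fits are too small for age and condition, and can be too large for LPS, since each adult number holds both treatments. No 2 libraries of the same group agreed within sampling noise, and pairs from different groups were not compared. Positions and promoter windows come from GRCm39 with GENCODE annotation.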

Additional observations from a re-analysis of the deposited data

Results flagged for a closer look

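In 4 of the 40 member and group combinations that could be examined, a single mouse stood far from the rest of its group, where chance gives about 1 in 20. Cry1 was at 0 CPM in mouse P200_1.1_CTR_PBS, with the next mouse at 2.70 CPM. Nr1d1 was 2.06 CPM in mouse P200_20.2_ELS_PBS, with the next at 6.54 CPM, and 8.08 CPM in mouse P200_5.3_CTR_LPS, with the next at 2.92 CPM. Bhlhe41 was 35.6 CPM in mouse P200_11.2_ELS_LPS, with the next at 128 CPM.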

How the results depend on the processing

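No result that passed its test turned to the opposite direction under any alternative that was run. The number of members passing with age in CTR mice went from 2 to 1 with a log2 fold change above 1, without a filter on low counts, in the fit of the compared groups alone and in limma voom with the label number as random effect, and to 3 with filterByExpr and without the 3 libraries with few detected genes. With age in ELS mice it went from 4 to 2 in the fit of the compared groups alone, to 3 without a filter and with a log2 fold change above 1, and to 5 in limma voom. After LPS in CTR mice it went from 2 to 1 without a filter, to 3 in DESeq2 and the likelihood-ratio test and to 4 in the fit of the compared groups alone. After LPS in ELS mice it went from 3 to 2 without a filter, in the fit of the compared groups alone and with a log2 fold change above 1, and to 5 in limma voom and without the 3 libraries. The number of pair correlations that passed went from 2 to 0 without these libraries. The cause was not tested. Leaving out each mouse in turn gave 1 to 3 members after LPS in CTR, 1 to 3 after LPS in ELS, 1 to 3 with age in CTR, 2 to 4 with age in ELS and 0 in the other comparisons. Over all genes, the comparison of P200-ELS-PBS with P200-CTR-PBS gave 28 genes in edgeR, 170 in DESeq2, 215 in the likelihood-ratio test and 0 in limma voom, and the interaction of age and condition 5, 20, 29 and 0. After LPS in ELS mice 3536 genes passed without the 3 libraries, against 2059.

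With the label number as a block in adult mice, 2 members passed after LPS in CTR, 4 in ELS, with Nr1d2 added (log2 fold change -0.999, adjusted p = 0.0315), and 0 differed in response. Over all genes, 2163 passed after LPS in CTR, 2124 in ELS and 0 differed in response in that fit. Among the other clock genes, Arntl was then lower after LPS in CTR (-1.04, adjusted p = 0.00112) and Rorb did not pass in ELS (adjusted p = 0.389). The call for Arntl was present in only 2 of 9 alternatives and in 0 of 14 fits that left out a single mouse. In a check of whether mice that share a number deviate together, PBS mice correlated best with the LPS mice of their own number in 4 of 10 numbers. The correlations with the own number ran from -0.0411 to 0.0841. With so few numbers the check cannot decide whether such mice deviate together. The numbers were not taken as pairs in the main fit. Several members lie near 1 CPM, where few counts limit the precision.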
